A study of Mus musculus with 12 samples.

Results

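Toll-like receptors are the family described here, measured as 10 genes (Tlr1 to Tlr9 and Tlr13) by RNA-seq of mouse periocular skin. They were taken from the table of gene counts by symbol, and all 10 were found among its 21247 genes. The libraries were 4 labelled ft/ft and 4 labelled ft/ftMyD88-/-, from BALB/c mice given as female and 6 weeks old. Both groups carry the ft/ft loss-of-function point mutation of filaggrin (Flg) without the ma mutation. The ft/ftMyD88-/- mice also lack MyD88, through a strain that the study describes as a global knockout. The comparison asks how the receptors differ in filaggrin-deficient skin when MyD88, the adaptor that most of them share, is missing. Another 4 samples, labelled wild type, were not analysed here, and neither was MyD88 deficiency without the filaggrin mutation, so no value is set against normal skin. Each library is given as coming from a separate mouse, so the p-values measure the spread between animals.

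Toll-like receptors bind microbial products through leucine-rich repeats and signal through a cytoplasmic TIR domain. At the cell surface, TLR2 pairs with TLR1 or TLR6 to bind lipopeptides, TLR4 binds lipopolysaccharide with MD-2 and CD14, and TLR5 binds flagellin. In endosomes, TLR3 binds double-stranded RNA, TLR7 and TLR8 bind single-stranded RNA or its breakdown products, TLR9 binds DNA with CpG motifs, and mouse TLR13 binds bacterial ribosomal RNA. All of them except TLR3 signal through MyD88, while TLR3 uses TRIF, which TLR4 also uses from endosomes. In skin, keratinocytes carry several of the receptors, and macrophages, dendritic cells, neutrophils and mast cells carry others.

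The libraries held 15802957 to 29255129 counts, and the totals did not differ by group (p = 0.457 in a two-sided exact permutation test). Libraries labelled ft/ft held 1.86 to 2.72% mitochondrially encoded counts and those labelled ft/ftMyD88-/- 1.02 to 1.99%. Levels are CPM, counts scaled to a common library size after edgeR had adjusted each total for composition (TMM). Myd88 itself showed no fall with the label, at 32.1, 36.5, 28.7 and 25.4 CPM in ft/ft and 38.8, 48.8, 32.2 and 44.9 CPM in ft/ftMyD88-/-. Counts summed over a gene hold no record of the exons covered, so they do not check this label. Flg was at 48.3 to 199 CPM in ft/ft and at 191 to 273 CPM in ft/ftMyD88-/-. With no wild-type library analysed, these counts do not check the point mutation either. Transcripts of the sex chromosomes went against the labelled sex. Xist, made from the inactive X of female cells, was at most 0.0429 CPM in ft/ft and 34.6 to 66.8 CPM in ft/ftMyD88-/-, and the Y-linked Ddx3y was 54.2 to 73.2 CPM in ft/ft and at most 0.482 CPM in ft/ftMyD88-/-. Genotype and sex-linked transcripts therefore separate the same libraries, and their parts in any difference below cannot be told apart. Tlr7, Tlr8 and Tlr13 lie on the X chromosome. Replicate 2 of ft/ft also stood apart in the summed level of neutrophil markers, most of which was S100a9, S100a8 and Ltf. Tlr13, Tlr5 and some of the counts and named genes are therefore also given without that library.

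Tlr1 and Tlr6 lie 18.467 kb apart on the same strand of chromosome 5 and share coding sequence. They are shown because a read from the shared part cannot be given to one of them. In the GRCm38 gene models of GENCODE M21, Tlr1 spans chr5:64924679-64933563 and Tlr6 spans chr5:64952031-64960097, both on the minus strand. The longest identical stretch was 229 bases long, at chr5:64925537-64925765 in the Tlr1 coding exon and at chr5:64953828-64954056 in that of Tlr6. The 60 coding bases on each side differed at 1 and 2 positions, in capitals below. All lines read 5′ to 3′ along the transcript, from the C57BL/6J reference, whereas these mice were BALB/c.
Tlr1, 60 bases before: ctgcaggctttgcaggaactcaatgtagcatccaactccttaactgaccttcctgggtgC
Tlr6, 60 bases before: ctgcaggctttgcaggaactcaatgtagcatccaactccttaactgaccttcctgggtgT
Tlr1 and Tlr6, shared: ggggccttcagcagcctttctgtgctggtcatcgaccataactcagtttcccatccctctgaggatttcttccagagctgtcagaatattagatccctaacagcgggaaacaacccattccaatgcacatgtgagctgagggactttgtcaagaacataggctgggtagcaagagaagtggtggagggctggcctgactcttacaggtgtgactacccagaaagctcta
Tlr1, 60 bases after: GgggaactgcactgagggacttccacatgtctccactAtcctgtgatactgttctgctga
Tlr6, 60 bases after: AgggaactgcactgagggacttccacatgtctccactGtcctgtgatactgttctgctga

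Over the whole coding sequences, 454 windows of 50 bases, the read length stated for the study, were identical in Tlr1 and Tlr6. These were 19.4% of the windows of Tlr1 and 19.2% of those of Tlr6. The study names HTSeq at default settings, which leaves out reads with several alignments, whereas the sample labels name Cell Ranger and a fixed-tissue protocol. How reads from the shared part were counted is therefore not known, and the values of Tlr1 and Tlr6 are less certain than the others. No other pair of the 10 shared a window of this length. An exon of Tlr3 overlaps exons of the antisense gene Gm45542 by 258 bases, and no strand setting is stated apart from the HTSeq defaults, so reads of the antisense gene may be among those of Tlr3.

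All 10 receptors were detected in every library, with 30 to 495 counts per gene and library, and all passed the minimum of 10 counts summed over the 8 libraries. Of the 10, Tlr13 was higher and Tlr3 lower in ft/ftMyD88-/-, and the other 8 did not pass the test (edgeR quasi-likelihood test, Benjamini-Hochberg adjusted p under 0.05 over 20454 genes). That is 20% of the receptors called, beside 23.3% of all genes tested, 1 of 10 higher beside 10.9%, and 1 of 10 lower beside 12.3%. The share of receptors called was thus near the background. The median log2 fold change was 0.16 over the receptors and 0.01 over all genes, and 7 receptors had a positive and 3 a negative value. In 2 of the 10, Tlr3 and Tlr5, the libraries of the groups did not overlap, beside 26.7% of all genes. In whole tissue such as this, fewer cells of a type and less RNA per cell cannot be told apart.

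**Figure D1:**
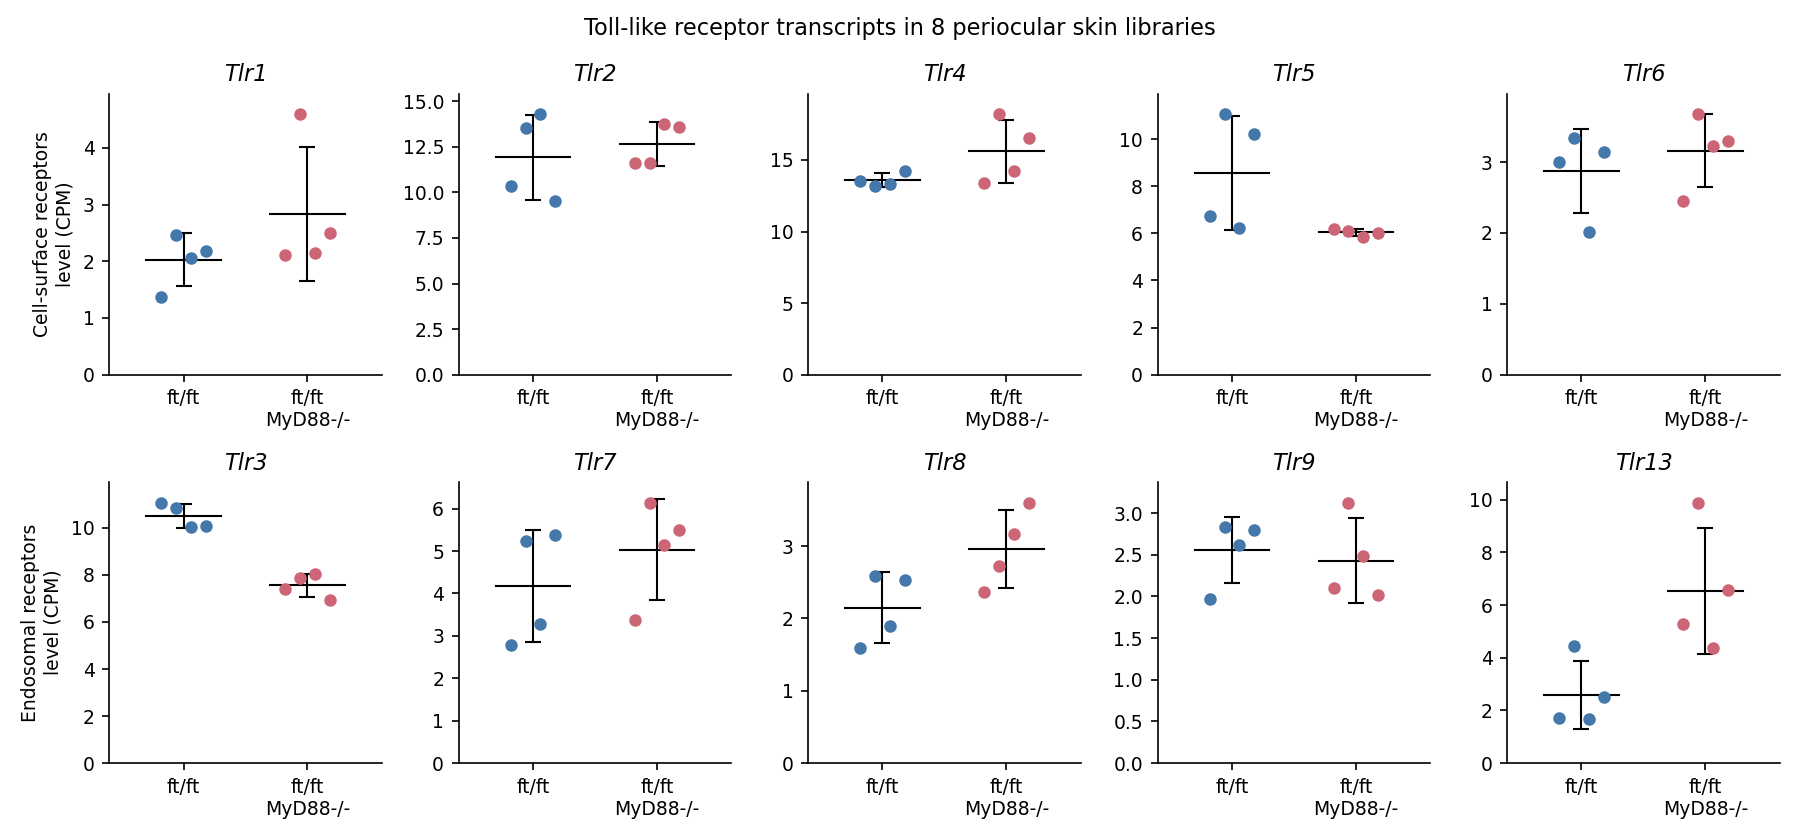
Level (CPM, linear axis from 0) of each receptor in every library, with the cell-surface receptors in the upper row and the endosomal ones in the lower. Points are libraries, horizontal lines means and whiskers SD (n = 4). Tlr3 and Tlr5 show no overlap between the groups, and Tlr13 overlaps only through ft/ft replicate 2 at 4.44 CPM.

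Among the endosomal receptors, Tlr13, the receptor for bacterial ribosomal RNA, rose in ft/ftMyD88-/-. It lies on the plus strand at chrX:106143204-106160493. Its level was 1.71, 4.44, 1.67 and 2.53 CPM in ft/ft and 5.30, 9.88, 4.39 and 6.59 CPM in ft/ftMyD88-/-. All 4 libraries of ft/ftMyD88-/- were above 3 of the 4 ft/ft libraries, and 3 of them were above every ft/ft library. The mean rose from 2.59 ± 1.29 to 6.54 ± 2.40 CPM (SD over 4 libraries in each group), and its log2 fold change was 1.32 (95% interval 0.55 to 2.09, adjusted p = 0.0210 in edgeR). This was the largest log2 fold change of the 10 in the edgeR fit. The exact permutation test gave p = 0.0571, where the smallest value possible is 0.0286. Leaving out 1 library at a time gave adjusted p from 0.00322 to 0.0580 in edgeR, and the call was lost without ft/ft replicate 1 (0.0551), ft/ft replicate 3 (0.0534), ft/ft replicate 4 (0.0580) or ft/ftMyD88-/- replicate 4 (0.0533). The log2 fold change in these fits was 1.16, 1.17, 1.30 and 1.33. Without ft/ft replicate 2, the log2 fold change was 1.72.

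Of 534 X-linked genes tested, 42 were higher (7.87%, beside 10.9% of all genes) and 81 lower (15.2%, beside 12.3%). Their median log2 fold change was -0.10. Only genes whose name matched a unique RefSeq symbol were placed on a chromosome. The other X-linked receptors, Tlr7 and Tlr8, are neighbours on the minus strand, with 40.599 kb between chrX:167304929-167330558 and chrX:167242696-167264329. Tlr7 was at 2.79, 5.24, 3.29 and 5.37 CPM in ft/ft and at 3.37, 6.14, 5.14 and 5.49 CPM in ft/ftMyD88-/-. In both groups its libraries spread widely and the ranges largely overlapped, with a log2 fold change of 0.26 (interval -0.27 to 0.80, adjusted p = 0.473 in edgeR). Tlr8 was at 1.59, 2.58, 1.90 and 2.53 CPM in ft/ft and at 2.37, 2.72, 3.16 and 3.60 CPM in ft/ftMyD88-/-. Although 3 of the 4 ft/ftMyD88-/- libraries were above every ft/ft library, Tlr8 did not pass the test, with a log2 fold change of 0.45 (interval -0.02 to 0.92, adjusted p = 0.152 in edgeR).

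Tlr3, the receptor for double-stranded RNA and the member that signals without MyD88, fell in ft/ftMyD88-/-. It lies on the minus strand at chr8:45395665-45411080. Its level was 11.1, 10.8, 10.04 and 10.1 CPM in ft/ft and 7.41, 7.86, 8.03 and 6.95 CPM in ft/ftMyD88-/-. Every ft/ft library was above every ft/ftMyD88-/- library, and the spread was small, with a coefficient of variation of 4.95% in ft/ft and 6.42% in ft/ftMyD88-/-. The mean was 10.5 ± 0.520 CPM against 7.56 ± 0.485 CPM (SD over 4 libraries in each group), and the log2 fold change was -0.47 (95% interval -0.72 to -0.23, adjusted p = 0.0103 in edgeR). The exact permutation test gave p = 0.0286, the smallest it can give. The call held without each library in turn, with log2 fold changes of -0.49 to -0.43. When library size alone was used for scaling, which shifted the median of all genes by 0.18, the log2 fold change was -0.29 and the call was lost (adjusted p = 0.0736 in edgeR).

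Tlr9, the receptor for CpG DNA on the plus strand at chr9:106222598-106226883, was at 1.97, 2.84, 2.62 and 2.80 CPM in ft/ft and at 2.10, 3.12, 2.48 and 2.01 CPM in ft/ftMyD88-/-. Its log2 fold change was -0.07 (interval -0.51 to 0.38, adjusted p = 0.850 in edgeR), and its sign changed with the scaling, at 0.11 when library size alone was used.

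Of the 5 cell-surface receptors, 0 passed the edgeR test, beside 23.3% of all genes. The count was 1 (Tlr5) in DESeq2, where 2865 of all genes were higher and 2777 lower. It was 0 in limma voom, where 2193 were higher and 2490 lower. Tlr5, the flagellin receptor, was the cell-surface receptor with the lowest log2 fold change, and lies on the plus strand at chr1:182954788-182976044. Its level was 6.73, 11.1, 6.25 and 10.2 CPM in ft/ft and 6.18, 6.10, 5.85 and 6.04 CPM in ft/ftMyD88-/-. All ft/ft libraries were above all ft/ftMyD88-/- libraries, but replicates 1 and 3 of ft/ft only just, and the ft/ftMyD88-/- libraries lay close together. The log2 fold change was -0.51 (95% interval -0.91 to -0.11), with an unadjusted p of 0.0170 and an adjusted p of 0.0648 in edgeR and an adjusted p of 0.0464 in DESeq2. The exact permutation test gave p = 0.0286. Of the ft/ft libraries, leaving out replicate 1 gave an adjusted p of 0.0406 in edgeR and leaving out replicate 3 gave 0.0307. Leaving out replicate 2 or 4, which held the highest levels, gave 0.182 and 0.179, at log2 fold changes of -0.36 and -0.41.

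Tlr2, on the minus strand at chr3:83836272-83841767, encodes the receptor that pairs with TLR1 or TLR6 at the membrane. It was at 10.3, 13.5, 14.3 and 9.55 CPM in ft/ft and at 11.6, 11.6, 13.7 and 13.6 CPM in ft/ftMyD88-/-. The ft/ftMyD88-/- libraries all fell within the range of the ft/ft libraries. The log2 fold change was 0.09 (interval -0.23 to 0.40, adjusted p = 0.715 in edgeR), so the interval reaches no further than a 1.32-fold rise or a fall to 0.852 of the ft/ft level. Its partners did not pass the test either. Tlr1 was at 1.37, 2.47, 2.06 and 2.19 CPM in ft/ft and at 2.10, 4.59, 2.14 and 2.50 CPM in ft/ftMyD88-/-, where replicate 2 stood above all other libraries. Its log2 fold change was 0.49 (interval -0.13 to 1.10, adjusted p = 0.237 in edgeR), and 0.14 without that replicate. Tlr6 was at 3.00, 3.35, 2.01 and 3.14 CPM in ft/ft and at 2.45, 3.67, 3.23 and 3.29 CPM in ft/ftMyD88-/-, with a log2 fold change of 0.13 (interval -0.31 to 0.57, adjusted p = 0.688 in edgeR). The ranges of both partners overlapped between the groups.

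Tlr4, the lipopolysaccharide receptor on the plus strand at chr4:66827584-66930284, varied little in ft/ft, at 13.5, 13.2, 13.3 and 14.3 CPM, and more in ft/ftMyD88-/-, at 13.4, 18.2, 14.3 and 16.5 CPM. Replicates 2 and 4 of ft/ftMyD88-/- were above every ft/ft library. The log2 fold change was 0.20 (interval -0.05 to 0.45, adjusted p = 0.244 in edgeR). When library size alone was used for scaling, Tlr4 and Tlr8 passed the test, with log2 fold changes of 0.37 (adjusted p = 0.0318) and 0.62 (adjusted p = 0.0496).

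**Figure D2:**
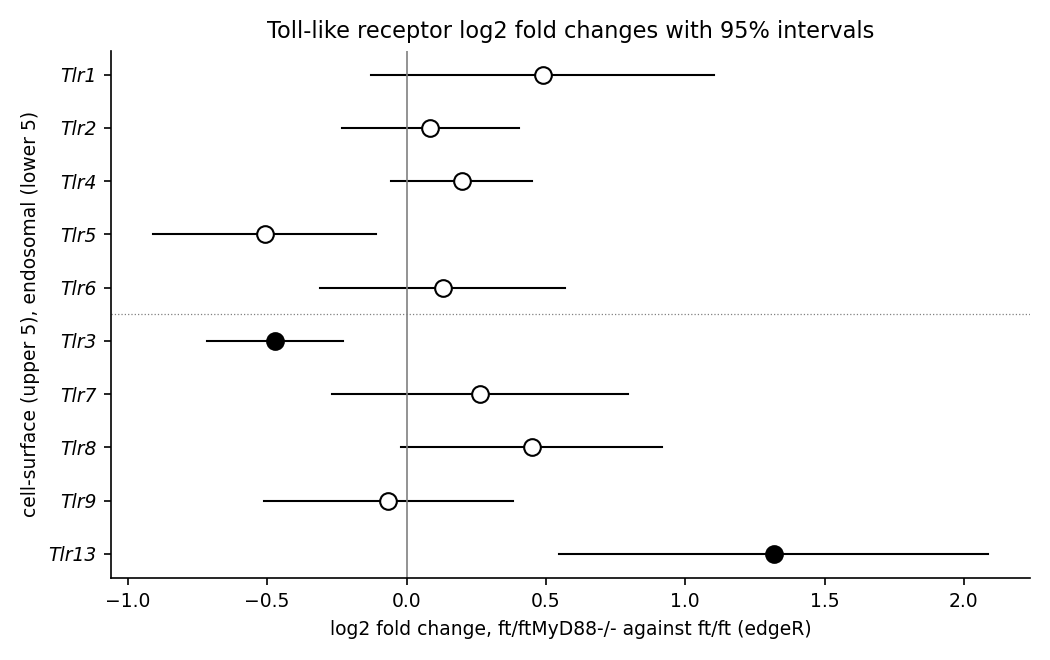
Log2 fold change of each receptor in ft/ftMyD88-/- against ft/ft, from edgeR, with its 95% interval. Filled circles passed an adjusted p of 0.05. The intervals of Tlr3, Tlr5 and Tlr13 do not reach 0, and of these Tlr5 did not pass after adjustment over 20454 genes.

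Levels of different receptors were compared per kilobase of exon, with lengths from GENCODE M21. This fits reads taken along the whole transcript, as the study describes, and need not fit the fixed-tissue protocol of the labels. In ft/ft, Tlr2 was the most abundant at 3.96 ± 0.774 CPM per kilobase (SD, n = 4), followed by Tlr4 at 2.45 ± 0.0852, Tlr3 at 2.02 ± 0.0998 and Tlr5 at 1.79 ± 0.508. The libraries of Tlr2, Tlr4 and Tlr3 did not overlap each other, while those of Tlr5 (1.30 to 2.31) overlapped Tlr3 (1.93 to 2.12). Tlr7 came next at 1.02 ± 0.324 CPM per kilobase, and the remaining 5, Tlr6, Tlr9, Tlr1, Tlr13 and Tlr8, had means between 0.599 and 0.771 with overlapping libraries. In ft/ftMyD88-/- the order began again with Tlr2 (4.19 ± 0.395 CPM per kilobase) and Tlr4 (2.81 ± 0.391). Tlr13 moved from rank 9 to rank 3 by its mean of 1.52 ± 0.559, but its libraries (1.02 to 2.30) overlapped those of Tlr3 (1.33 to 1.54), Tlr5 (1.22 to 1.29) and Tlr7 (0.827 to 1.50). The others, Tlr6, Tlr1, Tlr8 and Tlr9, had means between 0.699 and 0.849 CPM per kilobase. By CPM without division by length, Tlr4 was first and Tlr2 second in both groups, and Tlr13 moved from rank 7 to rank 4. No test was run on the order.

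**Figure D3:**
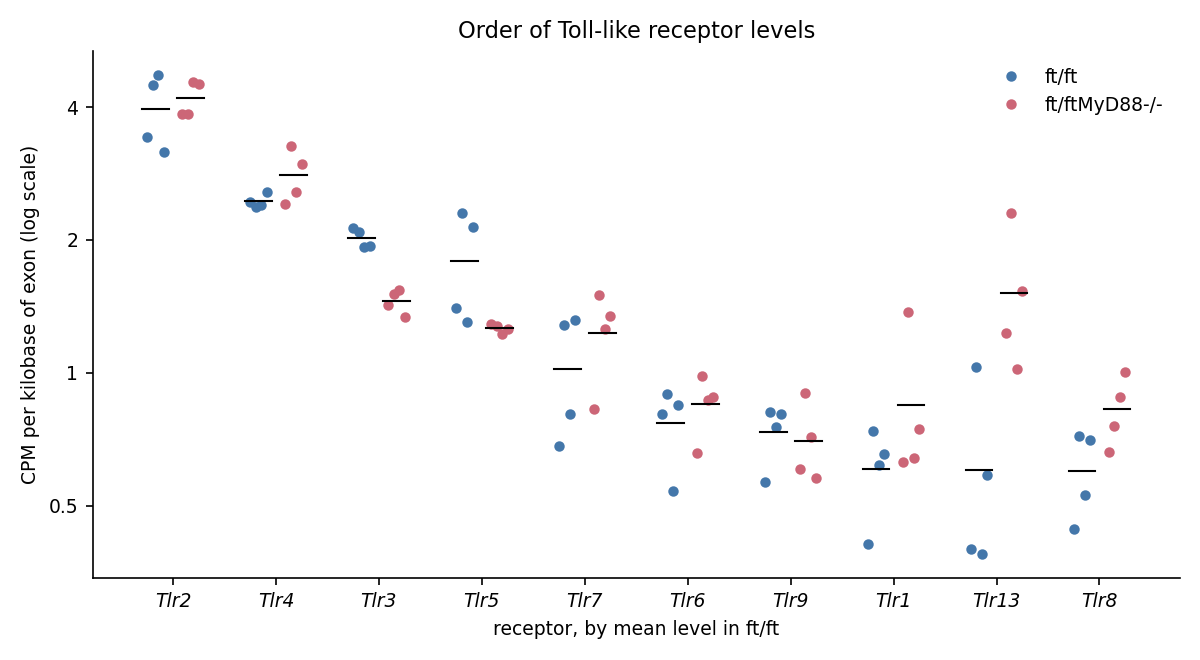
Level of each receptor in CPM per kilobase of exon (log axis) in ft/ft and ft/ftMyD88-/- libraries. Points are libraries and lines are means (n = 4 each), ordered by the mean in ft/ft. Per kilobase, Tlr2 leads in both groups and Tlr13 moves from rank 9 to rank 3.

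Ptprc, which encodes the pan-leukocyte antigen CD45, rose in ft/ftMyD88-/-. It was at 19.7 to 24.0 CPM in ft/ft and at 30.02 to 39.6 CPM in ft/ftMyD88-/- (log2 fold change 0.70, adjusted p = 0.00112 in edgeR). The marker counts that follow stand beside 10.9% of all genes higher and 12.3% lower, and those without ft/ft replicate 2 beside 9.93% higher and 11.2% lower. Of 12 macrophage and monocyte markers, 5 were higher and the other 7 did not pass, and their summed level was 669 to 854 CPM in ft/ft and 966 to 1263 CPM in ft/ftMyD88-/-. Most of the rise of the sum was that of Lyz2, whose mean was 260 CPM in ft/ft and 514 CPM in ft/ftMyD88-/-. Lyz2 (log2 fold change 0.98, adjusted p = 0.000665 in edgeR) and Ccr2 (0.74, adjusted p = 0.00525) were among those that rose, whereas Adgre1, which encodes F4/80, had a log2 fold change of -0.03 (adjusted p = 0.896). Of 9 neutrophil markers tested, 3 were higher, with a summed level of 67.8 to 369 CPM in ft/ft, where replicate 2 was the highest, and 441 to 1090 CPM in ft/ftMyD88-/-. Most of this sum was S100a9, S100a8 and Ltf, with means of 368, 242 and 183 CPM in ft/ftMyD88-/-, none of which was called with all 8 libraries (adjusted p = 0.123, 0.126 and 0.177 in edgeR). Without ft/ft replicate 2, 5 of the 9 were higher, among them S100a9 (adjusted p = 0.00517 in edgeR) and S100a8 (adjusted p = 0.00849). Ltf was not called without that library either (adjusted p = 0.128). The markers Camp and Mmp8 were very low, with means of 0.0636 and 0.134 CPM in ft/ft and 0.143 and 0.434 CPM in ft/ftMyD88-/-. The sum therefore mainly gives the level of S100a9, S100a8 and Ltf, and whether it came from neutrophils was not tested. Csf3r had a log2 fold change of 1.42 (adjusted p = 0.0476 in edgeR) and of 1.93 without that library (adjusted p = 0.00439), and the marker Fpr1, called with all 8 libraries and without that one, was at 0 in at least 1 ft/ft library. Tlr13 had its highest ft/ft value in replicate 2, but so did Tlr1, Tlr5, Tlr6, Tlr8, Tlr9 and Ptprc. The part of neutrophils or macrophages in the rise of Tlr13 was not tested.

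Of 8 T cell markers, 6 were higher and 1 lower, and 4 and 1 without ft/ft replicate 2. Of 10 markers of conventional dendritic and Langerhans cells, 4 were higher and 1 (Itgax) lower, and without that library 3 were higher and Itgax was not called (adjusted p = 0.121 in edgeR). Of 9 plasmacytoid dendritic cell markers, 2 were higher and 2 lower, and Siglech, a defining one, was not called. The 2 lower were Ccr9 and Cox6a2, and Cox6a2 (log2 fold change -1.11) fell about as much as the muscle marker Ckm (-1.10). The part of muscle in the fall of Cox6a2 was not tested. Of 8 mast cell markers, 1 was higher, and of 6 B cell markers, Blk alone was higher, while Ms4a1 was at 0 in at least 1 library. Of 10 keratinocyte markers, 6 were lower and the other 4 did not pass, and their summed level was 25803 to 32952 CPM in ft/ft and 19889 to 23510 CPM in ft/ftMyD88-/-. Krt15 fell most among them (log2 fold change -1.36, adjusted p = 0.000130 in edgeR), and Krt5 fell by 0.67 on the log2 scale. Of 8 fibroblast markers, 4 were lower, and of 10 markers each of endothelium, skeletal muscle and sebocytes, 3, 8 and 6 were lower. Without ft/ft replicate 2, the counts called were 4 for macrophages and monocytes, 5 for keratinocytes and 4 for sebocytes, and those for B cells, plasmacytoid dendritic cells, mast cells, fibroblasts, endothelium and muscle did not change. Of 8 adipocyte markers, 0 passed in edgeR, DESeq2 or limma voom, and 1 had an unadjusted p under 0.05 in edgeR. Tlr3, which was called, and Tlr5, which was not, had negative log2 fold changes, the direction of the keratinocyte, fibroblast, endothelial, muscle and sebocyte lists. The value of Tlr9 (-0.07) was also negative but changed sign in some alternative fits. The part of any of these cell types in the fall of Tlr3 was not tested.

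The counts of each receptor were also set against those of Ptprc in the same library, a comparison chosen after seeing the data and given with no test. Relative to Ptprc, Tlr13 was 0.0728 to 0.185 in ft/ft and 0.111 to 0.250 in ft/ftMyD88-/-, so the groups overlapped. Tlr3 was 0.437 to 0.562 in ft/ft and 0.198 to 0.247 in ft/ftMyD88-/-, without overlap. Tlr2, Tlr4, Tlr5 and Tlr9 were also lower relative to Ptprc without overlap, which makes 5 of 10 receptors beside 50.7% of all genes. Ptprc itself rose, so the division lowers the ratio of every gene in ft/ftMyD88-/-. The ratios of Tlr1, Tlr6, Tlr7 and Tlr8 overlapped between the groups.

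The genes that act with the receptors were grouped by role, and the shares called below stand beside 23.3% of all genes, or 21.2% without ft/ft replicate 2. Of 19 co-receptors and chaperones, 1 was higher and 2 lower, a share of 15.8% called, with a median log2 fold change of 0.09. Lbp, which delivers lipopolysaccharide to CD14, was at 22.0 to 30.3 CPM in ft/ft and at 40.6 to 106 CPM in ft/ftMyD88-/- (log2 fold change 1.20, adjusted p = 0.0366 in edgeR, and 1.28 with an adjusted p of 0.0675 without ft/ft replicate 2). Tril, an accessory protein of TLR4 and TLR3, was at 17.1 to 24.8 CPM in ft/ft and at 11.0 to 13.6 CPM in ft/ftMyD88-/- (log2 fold change -0.61, adjusted p = 0.00703). Cd36, a scavenger receptor that helps TLR2, had a log2 fold change of -0.47 (adjusted p = 0.0411, and -0.51 with an adjusted p of 0.0519 without ft/ft replicate 2). Unc93b1, the chaperone that carries the endosomal receptors to their compartment, differed little, with a log2 fold change of 0.01 (adjusted p = 0.948), and the co-receptor Cd14 did not pass the test at 0.71 (adjusted p = 0.0834). Without ft/ft replicate 2, Cd14 was called at 1.01 (adjusted p = 0.00505), and the list had 1 gene higher and 1 lower.

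Of 21 adaptors and kinases, 2 were higher and 1 lower (14.3% called), with a median of 0.04. Traf3, a ubiquitin ligase of the TRIF and MyD88 pathways, rose with no overlap, from 24.8 to 33.5 CPM in ft/ft to 35.8 to 40.2 CPM in ft/ftMyD88-/- (log2 fold change 0.47, adjusted p = 0.00802 in edgeR). Myd88 itself was the second (0.42, adjusted p = 0.0484). The kinase Irak1, which is X-linked, was at 78.8 to 84.5 CPM in ft/ft and at 61.0 to 69.2 CPM in ft/ftMyD88-/- (log2 fold change -0.31, adjusted p = 0.0113). Ticam1, which encodes TRIF, was close to 0 at -0.03 (adjusted p = 0.876). Of 13 negative regulators, 3 were higher and 1 lower (30.8% called), and 5 higher and 1 lower without ft/ft replicate 2, where Zc3h12a was called at 2.69 (adjusted p = 1.24e-05 in edgeR), beside 1.67 (adjusted p = 0.118) with all 8 libraries. With all 8, Socs1 rose most among those called, from 4.44 to 6.36 CPM in ft/ft to 7.27 to 9.63 CPM in ft/ftMyD88-/- (log2 fold change 0.79, adjusted p = 0.00396), followed by Tnfaip3, which encodes A20 (0.56), and Irak3 (0.51). Tollip, an inhibitor of IRAK1, fell from 170 to 194 CPM in ft/ft to 129 to 134 CPM in ft/ftMyD88-/- (log2 fold change -0.46, adjusted p = 0.00150).

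Cytokines, chemokines and enzymes that these receptors are known to induce had the most calls of these lists with all 8 libraries, but not without ft/ftMyD88-/- replicate 4 (4 calls beside 5 negative regulators) or replicate 2 (5 in both). Of 19 tested, 9 were higher and the other 10 did not pass (47.4% called), with a median log2 fold change of 1.46, and their summed level was 37.8 to 57.8 CPM in ft/ft and 80.7 to 132 CPM in ft/ftMyD88-/-. Cxcl1, a neutrophil chemokine, was at 0.0767 to 0.946 CPM in ft/ft and at 4.03 to 7.50 CPM in ft/ftMyD88-/- (log2 fold change 3.59, adjusted p = 0.000816 in edgeR, and 4.43 without ft/ft replicate 2). Il1b, whose product acts through a receptor that also uses MyD88, was at 0.920 to 8.69 CPM in ft/ft and at 19.1 to 47.6 CPM in ft/ftMyD88-/- (log2 fold change 3.00, adjusted p = 0.0250, and 3.84 without ft/ft replicate 2). Cxcl2 (3.31, adjusted p = 0.0319) was 0 in at least 1 ft/ft library. Il6 was called (adjusted p = 0.0415) at 0 to 0.112 CPM in ft/ft and 0.0438 to 1.43 CPM in ft/ftMyD88-/-, too few counts for a fold. Without ft/ft replicate 2, Cxcl2 was called at a log2 fold change of 7.09 (adjusted p = 5.58e-05 in edgeR), a size that rests on very few ft/ft counts, Il6 was not (adjusted p = 0.107), and 8 of the 19 were higher. Members that did not pass included Tnf (0.50, adjusted p = 0.146), Nos2 (0.01, adjusted p = 0.976) and Ccl5 (0.14, adjusted p = 0.778). The count of calls in this list was between 4 and 8 when 1 library was left out, with 4 without ft/ft replicate 3 or ft/ftMyD88-/- replicate 4.

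**Figure D4:**
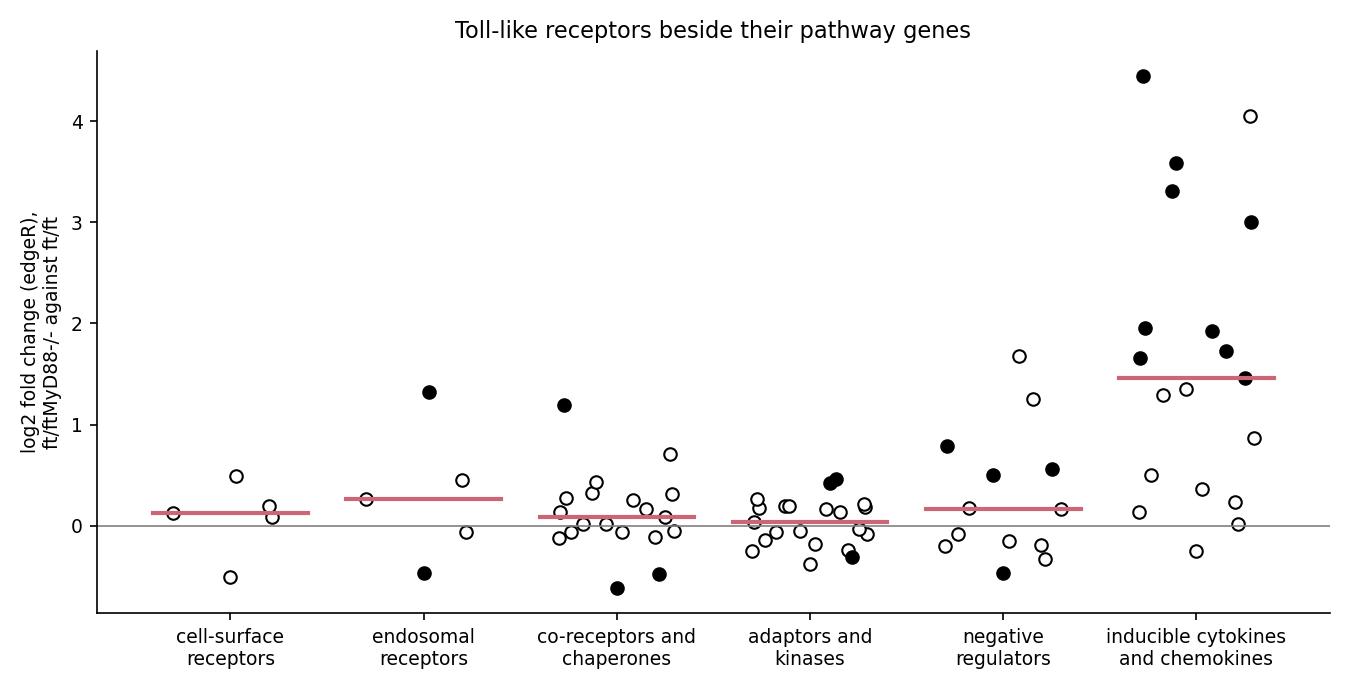
Log2 fold change in ft/ftMyD88-/- against ft/ft of the receptors and of the genes of their pathway, by role. Each circle is a gene, filled where it passed an adjusted p of 0.05 in edgeR, and red lines are list medians. The inducible cytokines and chemokines have the highest median, 1.46, and the adaptors and kinases the lowest, 0.04.

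The genes most like each receptor were found by the root mean square difference of log2 CPM, centred on each gene's mean over the 8 libraries, among 13507 genes with a mean of at least 50 counts. For Tlr13 these were Hdc, Msr1 and Csf3r, at 0.227, 0.240 and 0.280, beside a spread of Tlr13 itself of 0.897 (SD). Hdc and Csf3r are on the neutrophil list, and Msr1 encodes a macrophage scavenger receptor. For Tlr7 they were Cfp, Nfam1 and C1qb, at 0.168, 0.179 and 0.192, of which C1qb is on the macrophage list. The nearest to Tlr3 were Gpr107, Enox2 and Arhgap10, at 0.0319, 0.0426 and 0.0470. For Tlr9 they were Csf1, Dab2 and Epb41l3, at 0.0616, 0.0747 and 0.0784, and for Tlr4 Mcts1, Ptpn2 and Tnfrsf18, at 0.0544, 0.0626 and 0.0664. For the others the nearest differed by 0.147 (Pcsk5, then Lyve1 and Sdk1) for Tlr1, 0.0854 (Jmjd4, then Ino80e and Sh3rf3) for Tlr2, and 0.0981 (Ttk, then Psmg3 and Usp49) for Tlr6. Named neighbours of Tlr5 were Dcst2 and Hyal1, at 0.147 and 0.150, and those of Tlr8 were Itga1 and Srsf4, at 0.122 and 0.134, in both cases after a gene known only by a clone name. The own SDs of these profiles were 0.168 for Tlr4, 0.213 for Tlr2, 0.243 for Tlr9, 0.263 for Tlr3 and 0.275 for Tlr6, and 0.364 or more for the others.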

How the data were processed

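RNA-seq counts of 4 ft/ft and 4 ft/ftMyD88-/- periocular skin libraries were used, grouped by their titles, and the members and lists were chosen with earlier results of these data known. The authors deposited raw counts per gene, not normalized, made per their methods with HISAT and tophat2 on GRCm38.p6 and HTSeq at default parameters, while the labels of these 8 samples name Cell Ranger, total RNA and a fixed-tissue protocol. Which of these made the counts is not settled, and versions and annotation are not given in the sources used here. The 20454 genes with at least 10 counts over the 8 libraries were fitted with edgeR 4.0.16 in R 4.3.3 (TMM factors, glmQLFit with robust = TRUE, glmQLFTest, two-sided, Benjamini-Hochberg, 0.05), with a biological coefficient of variation of 0.182. Single values used two-sided exact permutation tests over the 8 libraries, whose smallest p is 0.0286. A count of 0 allows up to 3 counts, 0.102 to 0.183 CPM, and covers counting error only.

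Alternatives were DESeq2 1.42.0, limma 3.58.1 voom, RLE factors, library size only, filterByExpr, no filter beyond 1 count, a block by replicate number, leaving out each library, an adjusted p under 0.01, a minimum absolute log2 fold change of 1 and the mean log2 CPM of a marker list. On data simulated at the common dispersion of these libraries, 200 of 200 genes changed 4-fold were recovered and 13 unchanged genes called among 20224 tested. The changed genes all had a mean of at least 50 counts. The receptors changed less than 4-fold, so this does not measure how often changes of their size are recovered. Replicates differed by at least 15.1 chi-square units per degree of freedom, so none was counted as a duplicate. Named were all receptors, up to 4 called genes of each list with the largest log2 fold change, Myd88, Flg, sex-linked transcripts and genes a result turns on, and, per receptor with a mean of at least 50 counts, the 3 genes with the nearest profile. Of these, the values of marker genes on which no result turns are not given. Adgre1, S100a8, S100a9, Ltf, Tcf4, Siglech, Itgax, Krt5, Ms4a1, Unc93b1, Cd14, Zc3h12a, Ticam1, Tnf, Nos2 and Ccl5 were added after their values were seen. Lists were checked against the table, which lists no Ifnb1, Ly6g or Retnlg, and Ngp, Pax5 and Cr2 were under the minimum. 1 item is not reported here.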

Additional observations from a re-analysis of the deposited data

Results flagged for a closer look

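In 2 of 42 groups of 4 libraries checked, 1 library stood farther from the others than Dixon's 95% critical value allows, where chance gives about 1 in 20. Tlr1 in ft/ftMyD88-/- replicate 2 was at 4.59 CPM while the other 3 libraries were between 2.10 and 2.50 CPM, a gap of 0.841 of the group's range. The summed neutrophil markers in ft/ft replicate 2 were at 369 CPM while the other 3 libraries were between 67.8 and 82.6 CPM, a gap of 0.951 of the range. Tlr13 was also highest in that library among ft/ft, as were Tlr1, Tlr5, Tlr6, Tlr8, Tlr9 and Ptprc. Without that library the log2 fold change of Tlr13 was 1.72.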

How the results depend on the processing

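Of 150 alternative values for the 10 receptors, 136 kept their direction and their side of the threshold. The receptors called were 2 as reported, 3 in DESeq2 (Tlr3, Tlr5 and Tlr13) and under library size only (Tlr4, Tlr8 and Tlr13), 2 with the replicate block, 0 at an adjusted p under 0.01, 1 with a minimum absolute log2 fold change of 1, and 1 to 2 with 1 library left out. The replicate numbers did not pair the libraries, with same-number correlations of -0.15 to 0.03. The log2 fold changes of Tlr2 and Tlr9 changed sign, with Tlr2 at -0.0073 to 0.18 and Tlr9 at -0.21 to 0.017 when 1 library was left out, and Tlr9 at 0.11 under library size only.

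Over all genes, 4638 were higher and 1326 lower under library size only, against 2239 and 2525 as reported, 951 and 1350 at an adjusted p under 0.01, and 752 and 520 with the minimum fold change. DESeq2 gave 2865 higher and 2777 lower, and limma voom 2193 and 2490. With 1 library left out, 1462 to 2260 genes were higher and 1851 to 2408 lower. Library size only moves the share of higher calls because it omits the scaling for composition. The co-receptors and chaperones called were 3 as reported, 9 under library size only, 1 at an adjusted p under 0.01, 1 with the minimum fold change and 1 to 3 with 1 library left out. The adaptors and kinases called were 3 as reported, 5 in DESeq2, 10 under library size only, 1 at an adjusted p under 0.01, 0 with the minimum fold change and 2 to 4 with 1 library left out. The negative regulators called were 4 as reported, 0 with the minimum fold change and 3 to 6 with 1 library left out. The inducible genes called were 9 as reported, 4 at an adjusted p under 0.01 and 4 to 8 with 1 library left out.

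The log2 ratios of summed marker levels, with 1 library left out, were 0.47 to 0.61 for macrophages and monocytes, 2.26 to 3.51 for neutrophils, 0.53 to 0.79 for T cells, 0.20 to 0.36 for conventional dendritic and Langerhans cells, -0.47 to -0.33 for plasmacytoid dendritic cells, 0.76 to 1.25 for B cells, -0.52 to -0.41 for keratinocytes and 0.65 to 0.78 for Ptprc. The B cell sum rose through Blk (means of 2.08 and 5.86 CPM), and most of the plasmacytoid sum was Tcf4 and Cox6a2. Most of the neutrophil sum was S100a9, S100a8 and Ltf. With all 8 libraries, the exact tests of the T cell sum (p = 0.0571) and the conventional dendritic and Langerhans sum (p = 0.114) already did not pass. With 3 libraries against 4, their largest exact p was 0.0857 and 0.2. The largest exact p of the other sums was 0.0571, also above the threshold. Under library size only, the T cell ratio was 0.84 and the plasmacytoid one -0.22. By mean log2 CPM of the list, differences were 0.52 for T cells, 0.47 for conventional dendritic and Langerhans cells, 0.25 for B cells and, reversed, 0.16 for plasmacytoid dendritic cells. The cause of these changes was not tested. Depth limits the receptors with the fewest counts, of which Tlr13 had 30 and Tlr1 32 in their lowest library.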
